A study of Mus musculus with 12 samples.

Results

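The genes described here are 9 classical markers of alternative activation that encode secreted or cell surface proteins: *Retnla*, *Chil3*, *Mrc1*, *Clec10a*, *Mgl2*, *Pdcd1lg2*, *Cd163*, *Cdh1* and *Tmem26*. They were taken by symbol from the 48623 genes of the expression table, and each symbol matched 1 identifier. The libraries came from primary microglia of C57BL/6J background, either wild type (WT) or carrying the knock-in of *Trem2* R47H on both alleles (KI), without treatment or after 48 h of interleukin-4 (IL-4) at 20 ng/ml. The 3 WT cultures are called T13, T33 and T43 and the 3 KI cultures T15, T22 and T32. Every culture gave 1 untreated and 1 IL-4-treated library, which makes 12 libraries in 4 groups of 3. According to the study's methods, the cultures were made from cortex and hippocampus of newborn pups. The KI allele in this mouse is known also to lower *Trem2* expression through altered splicing.

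IL-4 signals in macrophages through its receptor and the JAK kinases to the transcription factor STAT6, which enters the nucleus and binds DNA. The state it brings about, alternative or M2-like activation, is recognised by secreted proteins such as RELMα (*Retnla*) and the chitinase-like protein Ym1 (*Chil3*), by carbohydrate-binding C-type lectin receptors such as the mannose receptor CD206 (*Mrc1*), and by PD-L2 (*Pdcd1lg2*), a ligand of the inhibitory T cell receptor PD-1. Several of these genes, *Retnla* and *Chil3* in particular, are markers in mice rather than in humans.

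The promoters are shown because 4 members that were higher with IL-4 in all 6 cultures hold a match to a STAT-type motif close to their start. RefSeq promoter entries (GRCm38.p6, 250 bases before to 50 after the annotated start) were matched for 7 of the 9 members, and *Clec10a* and *Cdh1* had none. The palindrome TTCNNNNGAA, searched on both strands and known as the spacing that STAT6 prefers, occurred in 3 of the 7 member promoters and in 6.95% of all 32851 promoters. The related TTCNNNGAA, with a spacer of 3 bases as other STAT proteins prefer, occurred in 1 of the 7 and in 8.3% of all promoters. The matches are in capitals in these stretches, each written 5′ to 3′ on the strand of its gene and ending before the first annotated transcript, with *Retnla* at chr16:48842359-48842550 on the plus strand, *Chil3* at chr3:106167565-106167814 on the minus strand, *Pdcd1lg2* at chr19:29410669-29410918 on the plus strand and *Tmem26* at chr10:68723496-68723645 on the plus strand.
Retnla: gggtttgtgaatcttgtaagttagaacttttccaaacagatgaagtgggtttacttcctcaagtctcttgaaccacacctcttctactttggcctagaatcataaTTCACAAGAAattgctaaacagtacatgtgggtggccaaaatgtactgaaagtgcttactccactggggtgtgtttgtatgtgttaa
Chil3: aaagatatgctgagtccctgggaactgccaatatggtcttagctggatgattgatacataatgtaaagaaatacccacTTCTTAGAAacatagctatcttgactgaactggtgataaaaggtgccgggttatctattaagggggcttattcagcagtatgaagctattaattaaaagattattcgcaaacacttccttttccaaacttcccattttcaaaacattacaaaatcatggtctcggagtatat
Pdcd1lg2: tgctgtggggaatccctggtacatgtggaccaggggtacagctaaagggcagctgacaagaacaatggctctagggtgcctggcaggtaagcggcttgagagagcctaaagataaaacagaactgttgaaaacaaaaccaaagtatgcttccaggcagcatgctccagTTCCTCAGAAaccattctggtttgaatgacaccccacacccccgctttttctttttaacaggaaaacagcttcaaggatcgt
Tmem26: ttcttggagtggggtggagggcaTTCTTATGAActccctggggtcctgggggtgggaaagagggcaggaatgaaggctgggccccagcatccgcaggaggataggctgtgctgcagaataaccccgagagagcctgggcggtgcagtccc
A second match of *Tmem26* lay after the start that GENCODE gives and 41 bases before the one that RefSeq gives. It is shown with 10 bases on either side, a stretch at chr10:68723695-68723724 on the plus strand.
Tmem26, second match: ctttgaagagTTCTCTGGAAgttggagggg
The matches of *Retnla*, *Chil3* and *Pdcd1lg2* began 145, 172 and 82 bases before the RefSeq start. In *Retnla* a C/EBP-type match, TTGCNNAA, which is present in 10.8% of all promoters, began 134 bases before the start, next to the STAT-type match and without overlapping it. Neither STAT-type motif was found in the 300 bases for *Mrc1*, *Mgl2* or *Cd163*. A match is a property of the sequence, and binding was not measured here.

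**Figure D1:**
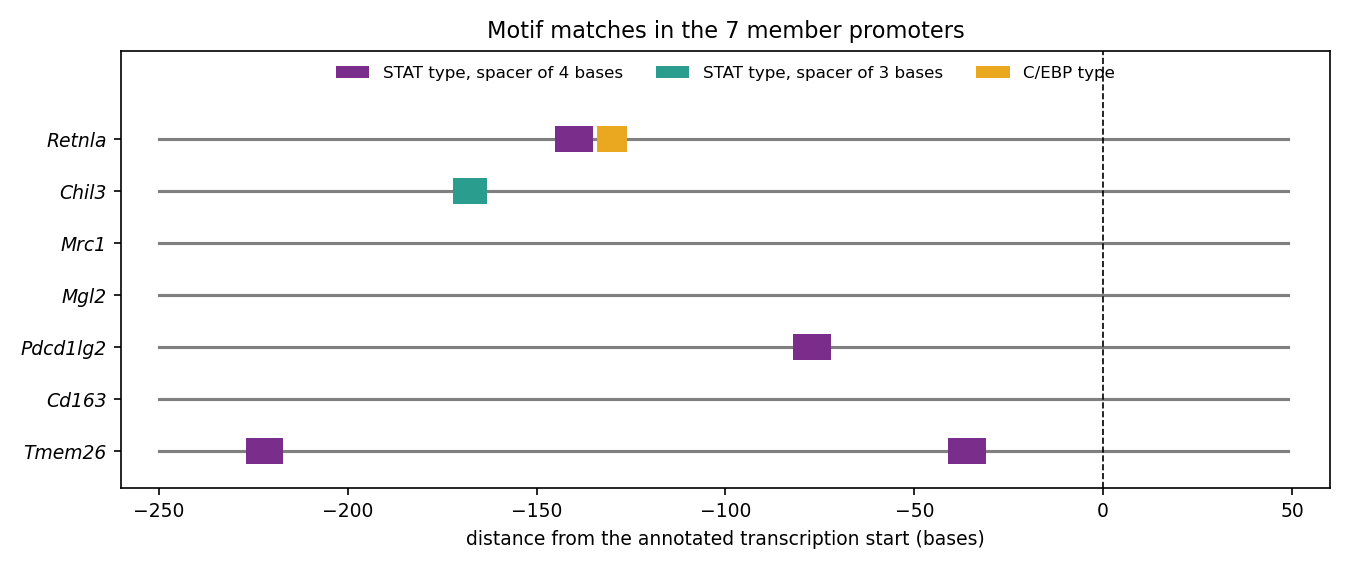
Motif matches in the RefSeq promoters of 7 members, plotted by distance from the annotated transcription start in bases (grey line, the 300 bases searched; dashed line, the start). *Tmem26* holds 2 matches with the 4-base spacer, *Retnla* and *Pdcd1lg2* hold 1 each, *Chil3* holds 1 match with the 3-base spacer, and the other 3 promoters hold none.

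Values are TPM, transcript abundances corrected for length and scaled to one total per library. They keep no read depth, so precision is given by the spread between cultures, and a value of 0 is described as listed at 0. Differences were computed on log2(TPM + 1), where a change in a gene of few TPM is understated, and were tested with limma. The fit takes 1 spread for all 4 groups. For *Retnla*, *Chil3*, *Clec10a*, *Mgl2* and *Cdh1* the untreated libraries hardly vary. Their SE for KI minus WT after IL-4 therefore understates the spread of the IL-4 libraries. The F-test for IL-4 took the response in both genotypes together, the F-test for genotype took the difference at both treatments together, and adjusted p-values (Benjamini-Hochberg over all genes tested) under 0.05 were counted as past the threshold. Of the 9 members, 4 passed the expression filter (mean log2 above 1.5): *Retnla*, *Chil3*, *Mrc1* and *Tmem26*. Because *Retnla*, *Chil3* and *Tmem26* passed it on the strength of their IL-4 libraries, the calls among the 4 are not counted as support for the set. The other 5 members were tested in a fit without the filter, over 29745 genes.

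The libraries held microglial RNA, with the summed TPM of 18 microglial markers between 9796 and 29760 and *C1qa* and *Csf1r* expressed throughout. Without treatment, *Trem2* stood at 1584 ± 282 TPM for WT and 566 ± 225 TPM for KI (SD, n = 3 each), without overlap. Of 17 microglial markers tested, 5 were lower in KI (*Csf1r*, *Aif1*, *C1qb*, *Fcrls* and *Itgam*), where 1.65% of all genes were called for genotype in either direction. IL-4 raised *C1qa* and lowered *Cx3cr1*, where 84 of the 11204 genes tested rose and 16 fell. When culture was a random replicate block, 2 stayed lower in KI, as *Csf1r* (adjusted p = 0.0648), *Fcrls* (0.0778) and *Itgam* (0.0766) did not pass, and *C1qb* (0.0318) and *Fcrls* (0.0199) passed for IL-4, as they did with a fixed block (0.00168 and 0.00744). With the random block 77 of the 11204 genes were called for genotype. After IL-4 the microglial marker sum was between 24975 and 29760 TPM in WT and between 16303 and 21867 TPM in KI, and the sum of 10 astrocyte markers was between 187 and 656 TPM in WT and between 633 and 3889 TPM in KI, highest in T15. None of the 9 astrocyte markers tested was called for IL-4 or genotype. In such bulk libraries, fewer cells of a type and less RNA per cell cannot be told apart. The defining border macrophage marker *Lyve1* was listed at 0 in all 12 libraries while *Pf4*, *Ms4a7* and *Stab1* were expressed, and of 7 such markers tested *Ms4a7* rose with IL-4, and *Clec4n* was lower when the block was fixed (adjusted p = 0.0167, against 0.168 without it). Of 10 dendritic cell markers *Ccr7*, *Cd209a* and *Dpp4* were listed at 0 throughout, while *Batf3*, a transcription factor of these cells, rose with IL-4 (adjusted p = 0.0298) and *Fscn1* reached 60.7 TPM. The dendritic sum averaged 21.6 TPM in untreated WT and 76.5 TPM after IL-4, and in KI 61.9 TPM untreated and 80.4 TPM after IL-4. Of this, *Batf3*, also among the genes that IL-4 is known to induce, went from 7.44 to 55.8 TPM in WT and from 5.09 to 40.7 TPM in KI. *Fscn1* averaged 55.1 TPM in untreated KI and 37.7 TPM in KI with IL-4, and the other 8 dendritic markers were below the filter. The dendritic sum was highest in T13 of the WT cultures at both treatments (42.5 and 105 TPM), and its part in the members' values was not tested. The sum of 7 monocyte markers without *Chil3* was at most 5.13 TPM. Of 10 epithelial markers *Epcam*, *Krt8*, *Krt18*, *Cldn3* and *Esrp1* were listed at 0 throughout, while *Foxj1* reached 27.4 TPM, *Folr1* 7.81 TPM and *Krt19* 6.61 TPM. The sum of 10 fibroblast markers reached 236 TPM in 1 WT library, that of 10 endothelial markers stood between 64.0 and 143 TPM after IL-4, where *Flt1* rose, and that of 10 oligodendrocyte markers was between 69.5 and 547 TPM, with *Olig1* higher in KI (adjusted p = 0.0438, or 0.0634 when the block was random). Of the endothelial sum after IL-4 *Flt1* averaged 89.8 of 102 TPM in WT and 73.6 of 83.4 TPM in KI, and *Cldn5*, *Tek* and *Emcn* were listed at 0 throughout.

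IL-4 raised the secreted marker *Retnla* the most of the 11204 genes tested, as ranked by the log2 difference averaged over both genotypes, and it raised the membrane protein genes *Tmem26* and *Mrc1* at ranks 9 and 14 and *Chil3* at rank 12. These ranks belong to a pseudocount of 1. With 0.1 the difference of *Chil3* went from 3.39 to 6.29 and that of *Mrc1* from 3.11 to 3.52, while that of *Tmem26* did not exceed 5.27 in any alternative. In 5 of the 9 members (*Retnla*, *Chil3*, *Mrc1*, *Pdcd1lg2* and *Tmem26*) the IL-4 libraries lay above the untreated ones without overlap in both genotypes, a pattern held by 0.861% of all genes above 0 in a library. The F-test called all 4 members past the filter, against 0.75% of all genes called higher with IL-4. Of the 4 only *Mrc1* was above the filter in untreated libraries alone, so this count is in part set by the filter. Without the filter, *Retnla* and *Tmem26* were called of the 9 members, against 0.168% of all genes, and when culture was a fixed replicate block in that fit neither passed (adjusted p = 0.112 and 0.127, from 0.00587 and 0.0062). *Clec10a*, *Mgl2* and *Cdh1* were at or near 0 in untreated libraries and in some of the IL-4 libraries, and *Cd163* stayed near 0 everywhere.

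**Figure D2:**
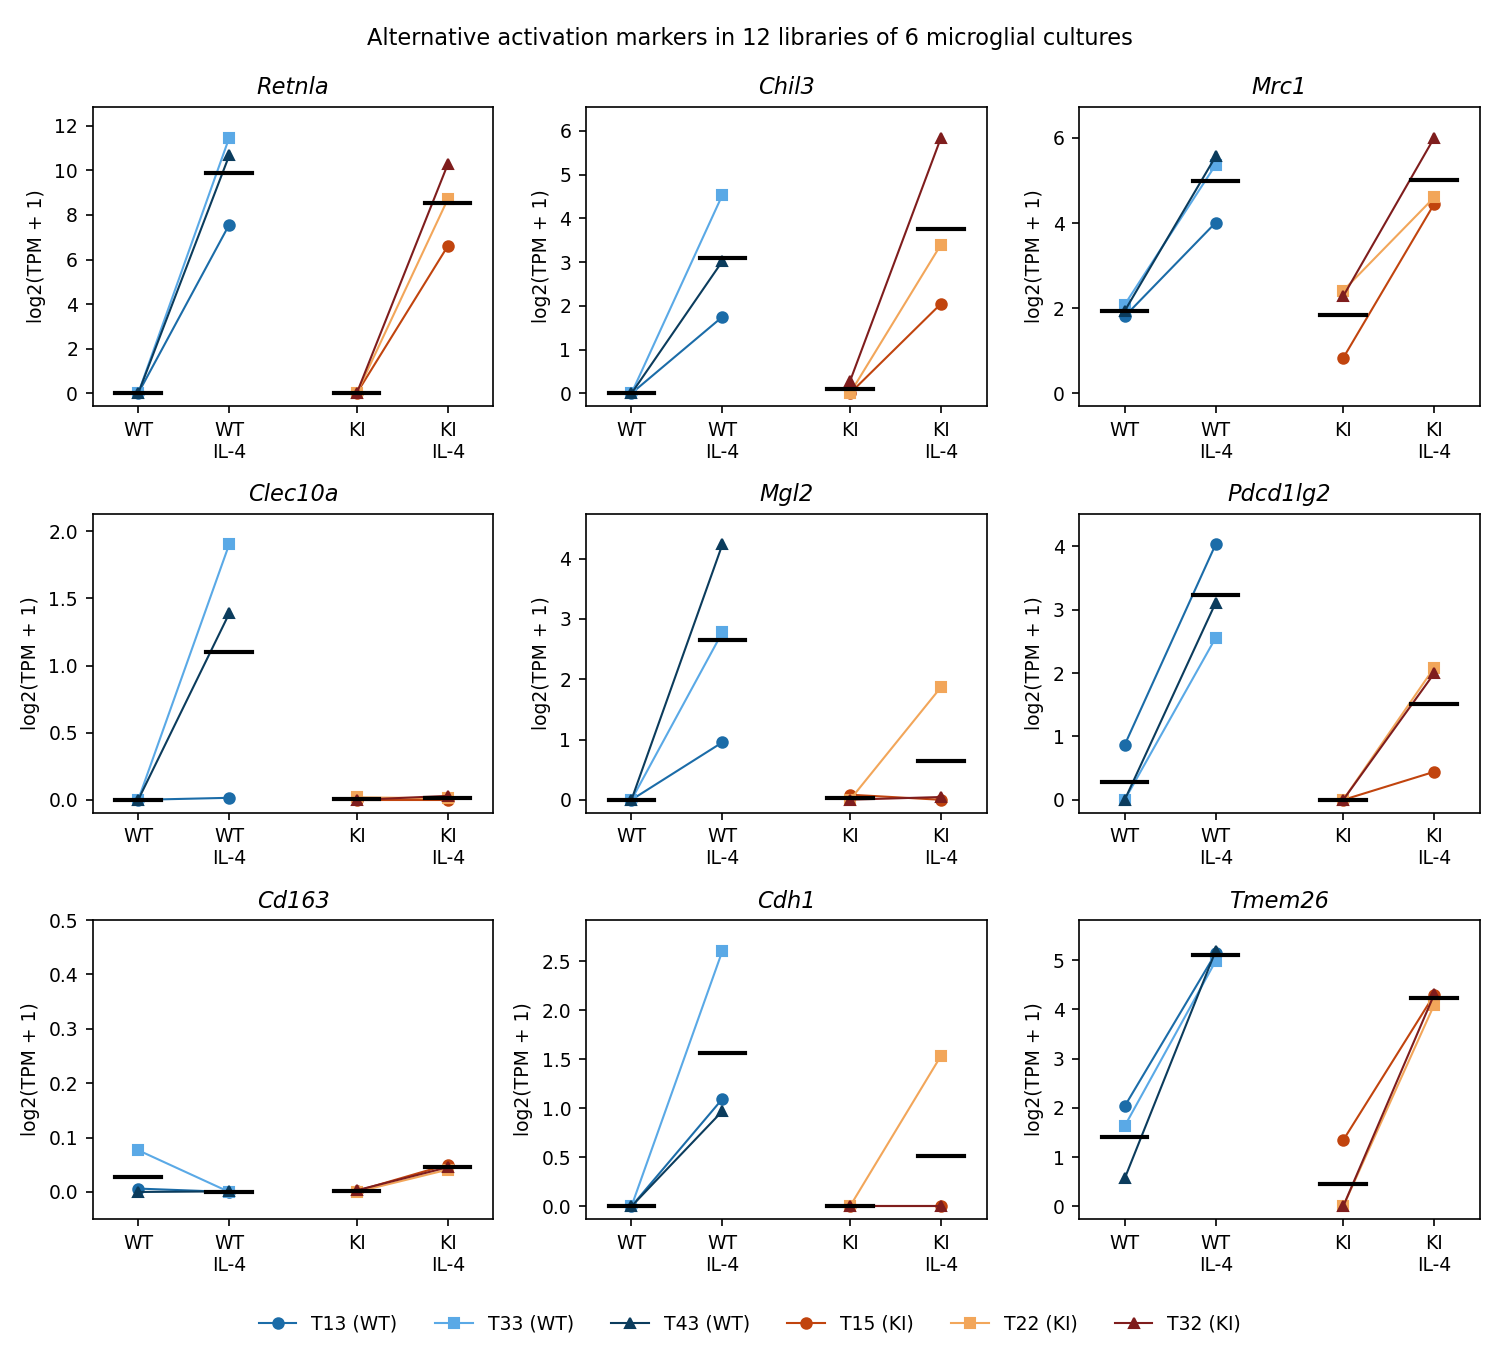
Expression of the 9 members as log2(TPM + 1) in every library, with lines joining the untreated and IL-4 library of 1 culture and black bars at group means (n = 3). *Retnla* went from 0 to the highest levels of the set in all 6 cultures, *Tmem26* spread by no more than 1.17 times within a genotype after IL-4, and *Cd163* did not exceed 0.0546 TPM.

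*Retnla* encodes RELMα, a secreted cysteine-rich protein of the resistin-like family, at chr16:48842551-48844461 on the plus strand. It was listed at 0 in all 6 untreated libraries. With IL-4 the WT cultures held 188 (T13), 2822 (T33) and 1629 TPM (T43), and the KI cultures held 96.1 (T15), 415 (T22) and 1229 TPM (T32). Every IL-4 library was thus far above every untreated one, while within a genotype the highest culture exceeded the lowest by 12.8 times in KI and by more in WT. The log2 difference was 9.90 (SE 0.89, adjusted p = 6.44e-05) in WT and 8.52 (SE 0.89, adjusted p = 0.000506) in KI, the latter lost without the filter (adjusted p = 0.056), and since the untreated groups were at 0 these sizes depend on the pseudocount and no fold is given. The group means after IL-4 were 1547 ± 1319 TPM in WT and 580 ± 584 TPM in KI (SD, n = 3 each), which overlapped, and their log2 difference of -1.38 (SE 0.89) did not pass the threshold (adjusted p = 0.643). On leaving out 1 culture at a time it ranged from -2.55 (without T13) to -0.42 (without T15), and none of the 6 values passed. The untreated libraries did not vary, whereas the log2 SD after IL-4 was 2.06 in WT and 1.84 in KI. With 1 spread for all groups, the SE therefore understates the spread of this difference and of the responses in WT and KI.

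*Retnla* made up between 69.0% and 96.2% of the summed TPM of the 9 members in the IL-4 libraries, so the sum of the set follows this gene. Its lowest culture in each genotype, T13 and T15, was also the culture with the highest astrocyte marker sum of its genotype after IL-4, at 656 and 3889 TPM against 187 to 198 TPM in the other WT and 633 to 662 TPM in the other KI cultures. The sum of 10 border macrophage markers was lowest in the same cultures, at 1321 TPM in T13 and 1155 TPM in T15. It was 1722 TPM in T33, which held the most *Retnla* of all cultures, and higher, 1968 TPM, in T43, and it was 1337 TPM in T22 and 2233 TPM in T32. *Ms4a7*, which itself rose with IL-4, averaged 1281 of the 1670 TPM of the border macrophage sum in WT and 1269 of 1575 TPM in KI after IL-4. The part of either marker sum in the *Retnla* level was not tested. The microglial marker sum did not order the cultures this way, as T13 held the highest of WT and T15 the lowest of KI.

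*Chil3* encodes Ym1, a secreted chitinase-like lectin without chitinase activity, at chr3:106147554-106167564 on the minus strand. It was listed at 0 in all untreated libraries except T32, which held 0.209 TPM. With IL-4 it reached 2.37 (T13), 22.2 (T33) and 7.13 TPM (T43) in WT, and 3.13 (T15), 9.56 (T22) and 56.3 TPM (T32) in KI. As for *Retnla*, T13 and T15 were the lowest of their genotype, and T32 was the highest of all 6 cultures. The F-test for IL-4 was past the threshold (log2 difference 3.39, SE 0.61, adjusted p = 0.0391), but on leaving out 1 culture at a time it was lost in 5 of 6 fits, with adjusted p up to 0.242 (without T43). It was also lost after quantile normalization (0.111), with median-ratio scaling (0.0534), without the variance trend (0.104) and without the filter (0.347). Within a genotype the response did not pass in WT (3.10, SE 0.86, adjusted p = 0.23) or in KI (3.67, SE 0.86, adjusted p = 0.119), although the KI response did when culture was a fixed replicate block (adjusted p = 0.0375) and the WT response did not (adjusted p = 0.0755). The genotypes overlapped after IL-4 (log2 difference 0.66, SE 0.86, adjusted p = 0.872).

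The transcripts of *Chil3* and its neighbour *Chil4*, 33.9 kb away, were 94.2% identical over the aligned length, and 28.9% of the 31-base words of *Chil3* also occurred in *Chil4*, so reads may be shared between them. *Chil4* was at 2.32 TPM in T32 with IL-4, where *Chil3* was highest, and at most 0.326 TPM in the other 11 libraries. Among the other chitinase-like genes, *Chil6* and *Chit1* were listed at 0 throughout, *Chil5* reached 0.102 TPM, and *Chia1*, an acidic chitinase, appeared in 1 library at 1.14 TPM. *Chil1*, which encodes the mouse counterpart of YKL-40, a secreted protein known from reactive astrocytes, was the only one of the 6 relatives past the filter. Without IL-4 it averaged 8.29 ± 3.77 TPM for WT and 58.2 ± 11.2 TPM for KI (SD, n = 3 each), and it was higher in KI over both treatments by 2.12 on the log2 scale (SE 0.30, adjusted p = 0.00897), whereas IL-4 did not change it past the threshold (-1.25, SE 0.30, adjusted p = 0.123). The fall of *Chil1* with IL-4 passed when culture was a fixed (adjusted p = 0.0471) or random (0.0409) replicate block. Untreated KI held 45.4 (T15), 65.8 (T22) and 63.4 TPM (T32) of *Chil1*, where the astrocyte marker sum was 4994, 229 and 640 TPM. The part of astrocyte RNA in the *Chil1* level was not tested. The resistin-like relatives of *Retnla* stayed near 0, with *Retnlb* at 0 throughout, *Retnlg* at most 3e-06 TPM and *Retn* at most 0.195 TPM.

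*Mrc1* encodes the mannose receptor CD206, an endocytic C-type lectin, at chr2:14229392-14332057 on the plus strand, and was the one member expressed in every untreated library. Untreated, it was at 2.50 (T13), 3.24 (T33) and 2.83 TPM (T43) in WT and 0.779 (T15), 4.33 (T22) and 3.86 TPM (T32) in KI. With IL-4 it was at 15.1, 40.4 and 46.4 TPM in the same WT cultures and 20.8, 23.3 and 63.2 TPM in the same KI cultures. The rise was of nearly the same size in both genotypes, 11.9-fold between group means in WT and 12.0-fold in KI. On the log2 scale it was 3.04 (SE 0.56, adjusted p = 0.0243) in WT and 3.18 (SE 0.56, adjusted p = 0.0233) in KI. On leaving out 1 culture at a time the call was lost in 3 of 6 fits in WT (adjusted p up to 0.438, without T43) and in 4 of 6 in KI (up to 0.178, without T32). Both were also lost without the variance trend (0.0715 in WT, 0.0611 in KI) and without the filter (0.2 and 0.168), and that in WT after quantile normalization (0.0622). The F-test over both genotypes passed in all 6 fits without 1 culture (largest adjusted p = 0.0392) and missed without the filter (0.0626). The KI and WT groups overlapped at both treatments, and the interaction, which asks whether the IL-4 response differs between genotypes, was 0.14 (SE 0.79, adjusted p = 1).

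*Clec10a* and *Mgl2* encode the paired galactose-type lectins of mouse macrophages and dendritic cells and are neighbours on the plus strand, *Mgl2* at chr11:70130329-70137550 and *Clec10a* at chr11:70156197-70170834, 18.6 kb apart. With IL-4 *Mgl2* was at 0.939 (T13), 5.87 (T33) and 17.9 TPM (T43) in WT and 0.00105 (T15), 2.65 (T22) and 0.0333 TPM (T32) in KI, and untreated it did not exceed 0.0614 TPM. *Clec10a* was at 0.0108 (T13), 2.74 (T33) and 1.62 TPM (T43) in WT with IL-4 and did not exceed 0.0208 TPM in any KI library. Both lectins were thus above 1 TPM in T33 and T43 and *Mgl2* also in T22, and the highest KI library of *Mgl2* lay between the WT ones. Neither passed the threshold for the IL-4 effect (*Mgl2*, log2 difference 1.63, SE 0.55, adjusted p = 0.829; *Clec10a*, 0.56, SE 0.27, adjusted p = 0.867). For *Clec10a* culture T13 decided this: without it the IL-4 effect (0.83, adjusted p = 0.0186), the genotype F-test (-0.81, adjusted p = 0.0119, from 0.612 with it), the difference between KI and WT after IL-4 (-1.63, adjusted p = 0.00486) and the interaction (-1.64, adjusted p = 0.0376) were past the threshold, whereas with it the difference after IL-4 and the interaction were -1.09 (adjusted p = 0.696) and -1.10 (adjusted p = 0.896).

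Levels of this pair are uncertain because 19.3% of the 31-base words of *Mgl2* and 13.7% of those of *Clec10a* occur in the other gene, and the aligned transcript stretch was 89.0% identical. Of their C-type lectin relatives and those of *Mrc1*, the asialoglycoprotein receptor genes *Asgr1* and *Asgr2* and the Kupffer cell receptor *Clec4f* were listed at 0 in all libraries, *Ly75* (DEC-205) was at most 0.569 TPM and *Pla2r1* at most 0.995 TPM. *Mrc2*, the collagen receptor Endo180, was at 3.44 ± 0.287 TPM in untreated KI (SD, n = 3) and listed at 0 in all 3 KI libraries with IL-4, while in WT with IL-4 it was at 1.16 ± 0.160 TPM (SD, n = 3). These differences of *Mrc2* were not past the threshold (IL-4 F-test adjusted p = 0.128, interaction adjusted p = 0.685).

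*Pdcd1lg2* encodes PD-L2, at chr19:29410919-29471161 on the plus strand. It was listed at 0 in every untreated library except T13, at 0.824 TPM. With IL-4 it was at 15.4 (T13), 4.89 (T33) and 7.64 TPM (T43) in WT and 0.360 (T15), 3.25 (T22) and 2.99 TPM (T32) in KI. All 6 cultures were higher with IL-4, all WT cultures lay above all KI cultures, and T13, the lowest WT culture for *Retnla*, was the highest here. The mean after IL-4 was 9.30 ± 5.44 TPM in WT and 2.20 ± 1.60 TPM in KI (SD, n = 3 each). Per 1000 TPM of the microglial marker sum, which was lower in KI, *Pdcd1lg2* was at 0.517 (T13), 0.196 (T33) and 0.289 (T43) in WT. On the same ratio it was at 0.0221 (T15), 0.149 (T22) and 0.147 (T32) in KI, again without overlap. The part of cell content in this difference was not tested. Neither the IL-4 effect (log2 difference 2.23, SE 0.41, adjusted p = 0.207, and from 0.096 to 0.744 over the alternatives) nor the difference between genotypes after IL-4 (-1.73, SE 0.58, adjusted p = 0.696) passed the threshold in the fit without a filter. *Cd274*, which encodes the other ligand PD-L1 and lies 22.8 kb away with no shared 31-base words, was already expressed without IL-4 and went from 12.0 ± 1.90 to 45.1 ± 12.0 TPM in WT, and stood at 22.8 ± 12.3 TPM untreated and 38.5 ± 8.01 TPM with IL-4 in KI (SD, n = 3 each). Its IL-4 F-test passed (log2 difference 1.31, SE 0.24, adjusted p = 0.0329), though it was lower with IL-4 in T32. The receptor gene *Pdcd1* was listed at 0, and the other co-stimulatory ligands *Cd80* (at most 2.98 TPM) and *Cd86* (8.67 to 56.5 TPM) were not called.

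*Cd163*, the haemoglobin scavenger receptor at chr6:124304656-124330527 on the plus strand, did not exceed 0.0546 TPM in any library. After IL-4 it was at 0.0355, 0.0289 and 0.0320 TPM in KI and at most 0.000804 TPM in WT, levels near the bottom of the scale that were not past the threshold (IL-4 F-test adjusted p = 0.867; without T33, 0.0271). The difference between genotypes after IL-4 (adjusted p = 0.734) and the genotype F-test (0.587) also passed without T33 (0.0234 and 0.0486). Of its scavenger receptor relatives, *Cd163l1* was listed at 0, and *Msr1* (75.5 to 253 TPM), *Marco* (5.23 to 41.3 TPM) and *Cd5l* (0 to 13.5 TPM) were expressed and not called for IL-4 or genotype.

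*Cdh1* encodes E-cadherin, the calcium-dependent adhesion protein of epithelia that IL-4 also induces in macrophages, at chr8:106603351-106670246 on the plus strand. It was listed at 0 in all untreated libraries. With IL-4 it was at 1.14 (T13), 5.10 (T33) and 0.963 TPM (T43) in WT, and at 1.90 TPM in T22 and 0 in the other KI cultures. It was therefore detected in 4 of 6 cultures and only with IL-4, and was not called (log2 difference 1.04, SE 0.35, adjusted p = 0.867). The epithelial markers *Epcam*, *Krt8* and *Krt18* were at 0 in these libraries, and the sum of the 10 epithelial markers was between 3.02 and 4.44 TPM in WT with IL-4 and in KI at 28.5 TPM in T22, 28.4 TPM in T15, where *Cdh1* was at 0, and 5.07 TPM in T32. Their part in the *Cdh1* value was not tested. Among its cadherin and catenin relatives *Ctnnb1* (138 to 334 TPM), *Ctnna1* (40.4 to 100.0 TPM), *Ctnnd1* (6.33 to 24.5 TPM) and *Jup* (1.48 to 15.9 TPM) were expressed and not called, although *Ctnnb1* (adjusted p = 0.0569 for IL-4) passed when culture was a fixed (0.0205) or random (0.0183) replicate block, and *Cdh3* and *Cdh5* were at most 0.334 TPM. *Cdh2*, N-cadherin, was higher in KI by 2.04 on the log2 scale (SE 0.38, adjusted p = 0.0369, or 0.0572 when culture was a random replicate block) and was highest in T15, at 101 TPM untreated and 132 TPM with IL-4, the culture with the most astrocyte marker RNA.

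*Tmem26*, a transmembrane protein gene also used as a surface marker of beige adipocytes, lies at chr10:68723646-68782650 on the plus strand. Untreated it was at 3.10 (T13), 2.10 (T33) and 0.482 TPM (T43) in WT, and at 1.54 TPM in T15 and 0 in T22 and T32. With IL-4 it was at 34.3, 30.7 and 35.6 TPM in WT and 18.7, 16.1 and 18.8 TPM in KI in the same order of cultures. Within a genotype the IL-4 libraries spread by no more than 1.17 times, against 12.8 times or more for *Retnla*, and the WT ones all lay above the KI ones. The response was 3.70 (SE 0.49, adjusted p = 0.00267) in WT and 3.79 (SE 0.49, adjusted p = 0.00316) in KI on the log2 scale, with an interaction of 0.09 (SE 0.70, adjusted p = 1). The call in WT was lost without T33 (adjusted p = 0.056) or T43 (0.104) and with a pseudocount of 0.1 (0.0965), and that in KI without T32 (0.0776).

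The lower level of *Tmem26* in KI after IL-4, 17.9 ± 1.51 against 33.5 ± 2.54 TPM (SD, n = 3 each), was a log2 difference of -0.87 (SE 0.49) that did not pass the threshold (adjusted p = 0.587), where limma takes 1 spread for all 4 groups and the untreated libraries vary more. The microglial marker sum was lower in KI as well, 0.721 times the WT mean after IL-4. Per 1000 TPM of that sum *Tmem26* was at 1.15, 1.23 and 1.35 in WT and 1.15, 0.738 and 0.924 in KI. On this ratio T15, the culture with the lowest microglial marker sum, was level with T13, and T22 and T32 stayed below all WT cultures.

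None of the 4 members past the filter was called for genotype over both treatments (adjusted p from 0.342 to 0.993), where 1.65% of all genes were. The same held for genotype in untreated cultures (0.91% of all genes called) and after IL-4 (0.0179% called), and for the interaction (0% called, with 357 genes at an unadjusted p under 0.05 and none of these 4 among them). For the response in WT alone *Retnla*, *Tmem26* and *Mrc1* were called, against 0.5% of all genes higher, and for that in KI alone the same 3, against 0.357%. Of these only *Mrc1* passes the filter without its IL-4 libraries, so both counts are in part set by the filter. Of the 5 members tested without the filter none was called for genotype (0.0538% of all genes called) or the interaction (0.0134% called), also with culture as a replicate block, while on leaving out 1 culture *Clec10a* (without T13) and *Cd163* (without T33) were called for genotype. Without T13 *Clec10a* was also called for the interaction. At an unadjusted p under 0.05 stood *Pdcd1lg2* and *Cd163* for genotype (8.18% of all genes in that fit), *Clec10a*, *Mgl2*, *Pdcd1lg2* and *Cd163* for the difference after IL-4 (6.33%) and *Cd163* for the interaction (3.04%). After IL-4, 6 of the 9 members had a lower mean in KI, of which *Pdcd1lg2* and *Tmem26* did not overlap with WT, a pattern that 3.94% of all genes showed in this direction. In the other direction *Cd163* did not overlap, as for 7.94% of all genes. *Mrc1* and *Chil3* also had higher means in KI, and that of *Mrc1* turned on the log2 scale to a lower one after quantile normalization (-0.12) or median-ratio scaling (-0.07). Over all genes the median of this difference was 0.09, and -0.06 after quantile normalization. In each of the 4 members past the filter the order of group levels was set by treatment, and the KI and WT groups next to each other in that order did not differ past the threshold.

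**Figure D3:**
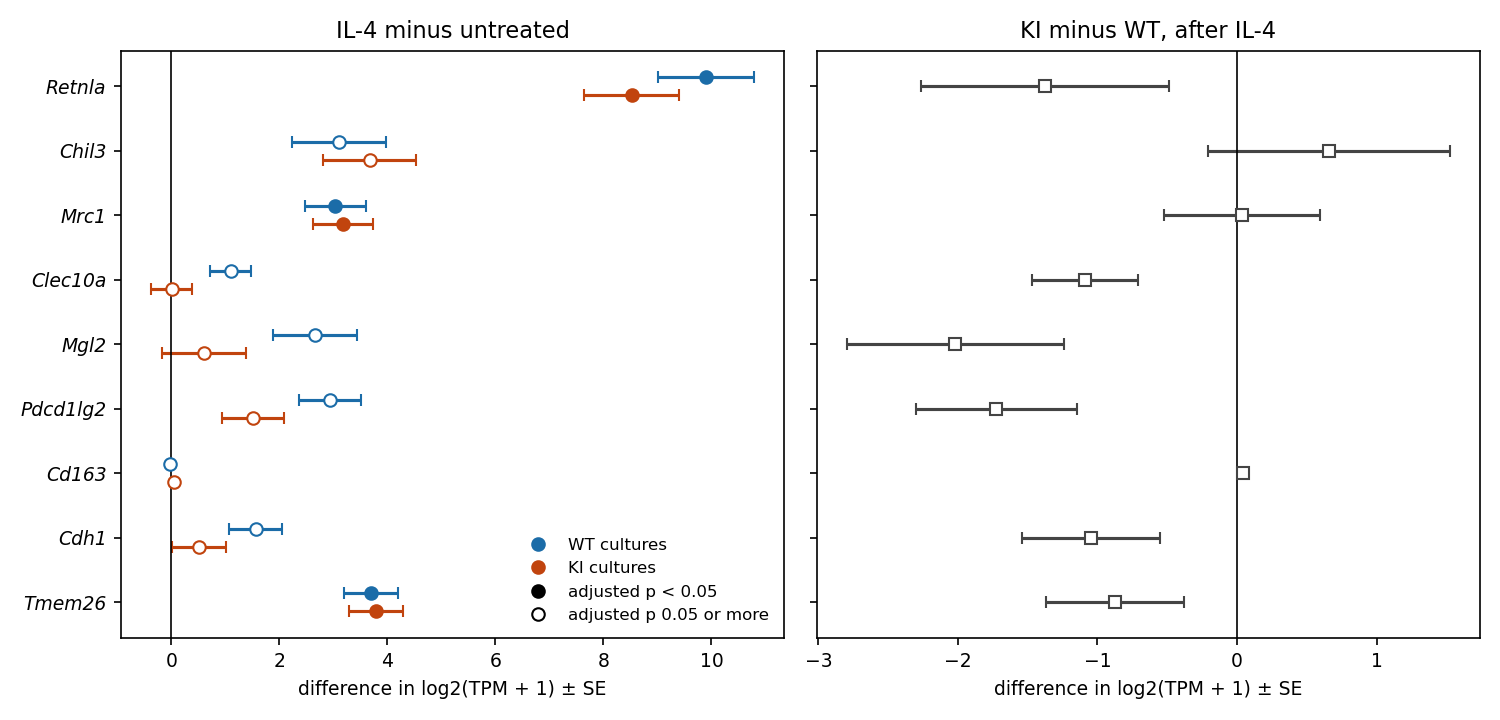
Differences in log2(TPM + 1) with standard errors from limma for the 9 members, on the left for IL-4 against untreated in WT and KI cultures and on the right for KI against WT after IL-4 (3 cultures per group; filled symbols, adjusted p under 0.05). *Retnla*, *Mrc1* and *Tmem26* are past the threshold in both genotypes on the left, and no member is on the right.

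**Figure D4:**
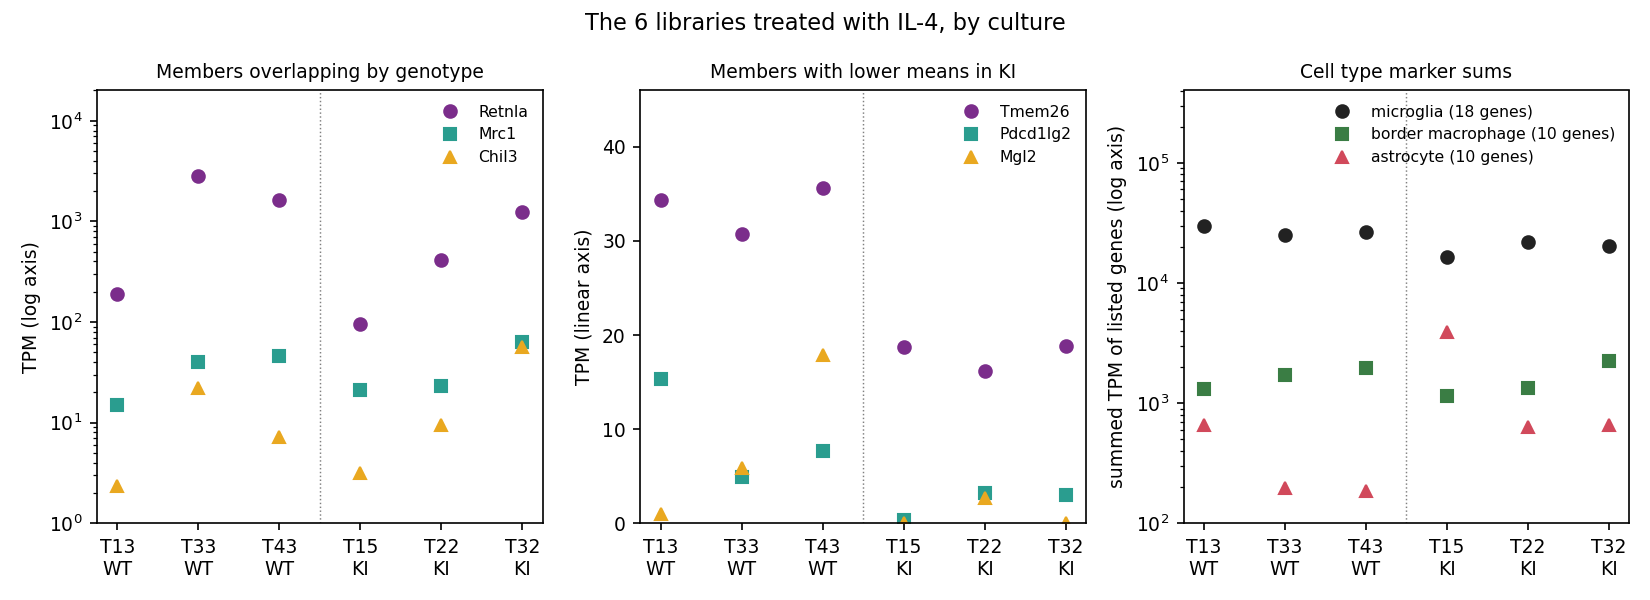
TPM of 6 members and summed TPM of 3 marker lists in the 6 IL-4 libraries, by culture, with log axes in the outer panels and a linear axis in the middle one. *Retnla* and *Chil3* are lowest in T13 for WT and T15 for KI, *Tmem26* is level within each genotype and higher in WT, and the astrocyte sum is highest in T15 at 3889 TPM.

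Over the 12 libraries the genes whose log2(TPM + 1) was most like that of *Retnla* were *Rnase2a* (r = 0.99), *Atp6v0a1* (r = 0.98) and *Dhrs3* (r = 0.97). *Rnase2a*, an eosinophil-type ribonuclease gene, was listed at 0 in untreated groups and averaged 25.2 TPM in WT and 26.8 TPM in KI with IL-4. It also led for *Chil3* (r = 0.95), before *Cd300lb* (r = 0.92) and *Atp6v0d2* (r = 0.92). For *Mrc1* the 3 nearest were *Atp6v0a1* (r = 0.97), *Rnase2a* (r = 0.97) and *Atp6v0d2* (r = 0.96), and both Atp6v0 genes encode subunits of the proton pump that acidifies lysosomes. For *Tmem26* the nearest were the creatine synthesis enzyme *Gatm* (r = 0.97), the long non-coding RNA *Mir99ahg* (r = 0.97) and the MHC class II chaperone *Cd74* (r = 0.96). These correlations rest mainly on the step between untreated and IL-4 libraries and the points share 6 cultures. Within the 6 IL-4 libraries alone, *Retnla*, *Chil3* and *Mrc1* still varied together (r from 0.74 to 0.85), whereas *Tmem26* did not vary with *Mrc1* (r = 0.01) and had r = 0.34 with *Retnla* and -0.26 with *Chil3*.

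Of 24 other genes that IL-4 is known to induce in macrophages, 17 passed the filter, of which 9 rose, where 0.75% of all genes did, and none fell, with a median log2 difference of 1.74 against 0.04 over all genes. Of the 17, 4 passed the filter only with their IL-4 libraries, so this count is in part set by the filter, and of the 13 above it in untreated libraries alone 7 rose. Without the filter 6 of 21 rose, against 0.168% of all genes. When culture was a fixed replicate block 13 rose, with *Mmp12* (adjusted p = 1.34e-05), *Pparg* (0.0077), *Fn1* (0.0146) and *Tgm2* (0.0474) added, and when it was random 9, where 1.79% and 1.2% of all genes were called higher. *Socs1*, a feedback inhibitor of JAK signalling, rose by 4.25 (SE 0.39, adjusted p = 8.92e-05), the transcription factor *Egr2* by 2.75 (SE 0.24, adjusted p = 0.000101) and the integrin *Itgax* by 3.63 (SE 0.38, adjusted p = 0.00056). The chemokine gene *Ccl17*, the lipoxygenase *Alox15* and the lectin *Cd209a*, also known IL-4 targets, were listed at 0 in all libraries. Of 10 genes of the receptor and JAK-STAT6 pathway 9 were tested and none was called for IL-4, genotype or the interaction, among them the receptor chain *Il2rg* (32.2 to 136 TPM) and *Stat6* (25.6 to 101 TPM). *Il2rg* passed for IL-4 when culture was a fixed replicate block (adjusted p = 0.0279, against 0.331 without it).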

How the data were processed

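Polyadenylated RNA from 12 libraries of primary microglia (4 groups of 3 cultures) was sequenced. Per the labels and the paper's methods, the authors used Trim Galore for trimming and Salmon on GRCm38 for transcript quantification, and summed to genes. The deposited values are TPM, which keep no read depth, so the counting error is unknown and p-values measure the spread between cultures. Versions of these tools were not given in the sources used here. The authors tested counts with DESeq2, and those counts were not analysed here.

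Of 48623 identifiers, 48350 matched a symbol. Values were taken as log2(TPM + 1) and tested with limma 3.58.1 (R 4.3.3, variance trend) over all 12 libraries for 11204 genes with a mean above 1.5. The same fit over the 29745 genes above 0 in a library served members below that filter. Fits were tested on simulated data. Summaries and plots were made in Python 3.11.15. Gene positions and transcripts are from GENCODE M21, promoters from RefSeq.

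Untreated and IL-4 libraries are paired by the culture number in the sample names. Deviations from the group means correlated between the paired libraries at 0.0792 to 0.378. Fits with culture as a fixed replicate block (IL-4, interaction) or a random one (within-culture correlation 0.198) are given beside the calls they change for the genes named.

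The members, gene lists and motifs were chosen with earlier results of these data known. Beside the 9 members, the genes named are the 3 most correlated with each member past the filter, up to 4 per list, and all relatives of the families, except 1 gene that is not reported here. Further list genes, named because they were listed at 0, expressed in a marker list or called in a fit, were chosen after their values were seen. Alternatives were quantile normalization, a pseudocount of 0.1, a filter at 3 or none, the blocks, median-ratio scaling, a 1-coefficient test, a fit without the variance trend, and leaving out each culture.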

Additional observations from a re-analysis of the deposited data

How the results depend on the processing

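No member was called for genotype or the interaction under any alternative for the 4 members past the filter, and *Retnla* and *Tmem26* kept their IL-4 call in every alternative that changed 1 choice and included them. Of the 4 members called for IL-4, 2 were called with no filter and 2 with a filter at 3, which removes *Chil3* and *Tmem26* from the test. With each culture left out in turn, 3 to 4 were called for IL-4, 1 to 3 for the response in WT (1 without T33 or T43) and 1 to 3 for that in KI (1 without T32, and also 1 with no filter). Among members below the filter, 0 to 1 were called on leaving out a culture (*Clec10a* without T13, *Cd163* without T33).

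Several small differences that were not called changed sign. After quantile normalization the average IL-4 and genotype differences of *Cd163* were -0.0133 and -0.0102 and the KI minus WT difference of *Mrc1* after IL-4 was -0.12 (-0.0716 with median-ratio scaling). Over the fits without 1 culture, KI minus WT ranged for *Chil3* from -0.19 to 0.83 on average and from -0.38 to 1.52 after IL-4, with an interaction from -0.38 to 1.38. For *Mrc1* it ranged from -0.39 to 0.36 on average, from -0.39 to 0.40 untreated and from -0.46 to 0.33 after IL-4, with an interaction from -0.28 to 0.63. The interaction of *Tmem26* ranged from -0.20 to 0.56, and the response in KI from -0.00344 to 0.0148 for *Clec10a* and from -0.0204 to 0.956 for *Mgl2*. With the replicate block, no call of a member in the filtered fit other than the *Chil3* response in KI changed. In the fit without a filter the fixed block ended the IL-4 calls of *Retnla* (adjusted p = 0.112 over both genotypes, 0.138 in WT) and *Tmem26* (0.127 over both, 0.177 in WT, 0.198 in KI), and the random block brought *Mrc1* over both genotypes (0.0414) and *Retnla* in KI (0.0417) past the threshold. TPM keep no depth, so values under about 1 TPM cannot be weighed against counting error.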
